A study of Mus musculus with 6 samples.

Results

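Mouse genes of the tripartite motif family were compared between the bone marrow of diabetic and wild type mice. The members were all genes whose symbol in the platform annotation is Trim followed by a digit and whose probe set carries that symbol alone. The rule gave 59 TRIM genes among 19938 genes, each read by 1 such probe set, so no member had to be chosen among several sets. Another 6 probe sets that the annotation gives to a TRIM gene together with other genes were left out.

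RNA had been hybridised to 6 Affymetrix arrays, 3 labelled wild type and 3 labelled diabetic. All animals are given as males of 10 weeks. The diabetic mice are a leptin receptor model, and the genotype labels of both groups name the allele Leprdb and differ in the signs written before it, -/- for the diabetic and +/+ for the wild type arrays. The db allele damages the long form of the leptin receptor in every cell of the animal, which makes obesity and high blood glucose part of the model. Marrow flushed from the shafts of femurs and tibiae was taken without sorting, so in these bulk samples fewer cells of a type and less RNA per cell cannot be told apart. The labels do not say whether an array held 1 animal or a pool, and the p-values therefore measure the spread between these samples.

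Most TRIM proteins carry a RING finger, one or more B-boxes and a coiled coil and act as ubiquitin ligases, while a few lack the RING finger. The RING finger takes ubiquitin from a conjugating enzyme and passes it to a target that the end of the protein selects, often through a PRY-SPRY domain. In blood cells the family is best known for its antiviral members, many of which are themselves switched on by interferon, while other members act in chromatin, in red cell formation, in muscle or in nerve cells.

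Promoter sequence was available for 46 of the 59 members in the RefSeq table of GRCm38.p6, as windows from 250 bases before to 50 bases after an annotated transcript start. Each was searched on both strands for the core of the interferon-stimulated response element, GAAA and GAAA with any NN between them, read on the other strand as TTTC, NN and TTTC. The core was found in a window of 8 members, namely Trim30a, Trim30d, Trim12a, Trim12c, Trim34a, Trim21, Trim26 and Trim2. It occurred in 3.44% of all 32851 windows and in 15% of the 60 windows of TRIM genes, some of which have several starts. The stretches below run from 70 bases before to 30 bases after the start, 5′ to 3′ on the gene's strand, with the core in capitals, and are shown because the members with the largest falls and their chromosome 7 neighbours can be compared in them.
Trim30d (chr7:104507820-104507919, minus strand): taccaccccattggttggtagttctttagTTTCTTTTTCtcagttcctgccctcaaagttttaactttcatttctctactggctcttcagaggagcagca
Trim30a (chr7:104465164-104465263, minus strand): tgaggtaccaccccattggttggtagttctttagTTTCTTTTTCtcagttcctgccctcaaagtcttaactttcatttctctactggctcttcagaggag
Trim12c (chr7:104353320-104353419, minus strand): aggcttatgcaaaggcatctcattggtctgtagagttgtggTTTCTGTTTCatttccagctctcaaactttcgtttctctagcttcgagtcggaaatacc
Trim12a (chr7:104315466-104315565, minus strand): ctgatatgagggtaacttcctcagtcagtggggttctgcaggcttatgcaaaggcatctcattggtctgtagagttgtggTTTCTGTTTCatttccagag
Trim34a (chr7:104244387-104244486, plus strand): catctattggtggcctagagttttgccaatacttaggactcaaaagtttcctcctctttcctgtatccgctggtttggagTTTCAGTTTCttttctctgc
Trim21 (chr7:102565453-102565552, minus strand): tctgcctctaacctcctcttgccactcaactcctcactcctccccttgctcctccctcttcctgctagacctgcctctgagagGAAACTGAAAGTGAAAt
Trim25 (chr11:88999333-88999432, plus strand): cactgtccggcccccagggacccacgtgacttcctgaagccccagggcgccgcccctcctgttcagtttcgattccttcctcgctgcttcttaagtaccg

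The cores of Trim30d and Trim30a are the same 10 letters and lie 41 to 32 and 36 to 27 bases before the start. The windows of both genes share an unbroken run of 118 bases, offset by 5 bases, so these neighbours are close copies in this region. Trim12c and Trim12a also share their 10 letters, which lie 29 to 20 bases before the start of Trim12c and 11 to 20 bases after that of Trim12a. Trim21 holds a pair of overlapping cores after its start. Trim25 holds none in its window, which says only that these letters are not there. Trim26, shown for the contrast with its values further on, has a pair of overlapping cores 160 to 145 bases before its start.
Trim26 (chr17:36836956-36837025, plus strand): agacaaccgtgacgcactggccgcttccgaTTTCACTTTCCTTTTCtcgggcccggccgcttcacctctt

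Within the antiviral cluster on chromosome 7, the family's rodent relatives of the capsid restriction factor TRIM5, the Trim30 genes stood out in diabetic marrow. Trim30d was 1.65-fold lower in diabetic than in wild type marrow and was the only one of the 59 members past an adjusted p of 0.05. Trim30a, its close copy, was 1.55-fold lower and missed that threshold. The rest of the cluster had smaller differences, and Trim12a and Trim6 lay within the spread of the arrays.

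Trim30d had log2 signals of 9.42, 9.53 and 9.20 in the wild type samples, against 8.80, 8.50 and 8.68 in the diabetic ones. Every diabetic value lay below every wild type value. The means were 9.38 ± 0.17 and 8.66 ± 0.15 (SD, n = 3 each). Trim30d fell by 0.72 ± 0.11 on the log2 scale (SE), and limma's Benjamini-Hochberg adjusted p over 12029 genes was 0.0404. In that fit 0.432% of all genes passed and 0.333% passed as lower, against 1 of the 39 TRIM genes tested. With no level filter the same member was called among all 59, where 0.286% of 19938 genes passed and 0.216% passed as lower. The call held without wild type replicate 3 and was lost when any of the other 5 arrays was left out, with log2 changes from -0.81 to -0.64 over the 6 cases.

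Trim30a encodes a ligase known to restrain Toll-like receptor signalling through the TAB2 and TAB3 adaptors. Its log2 signals were 11.53, 11.69 and 11.47 in wild type and 10.93, 10.74 and 11.11 in diabetic marrow. The groups did not overlap. The log2 change of Trim30a was -0.64 ± 0.10 (SE, n = 3 per group), and limma's Benjamini-Hochberg adjusted p was 0.0638. Over the 15 alternative settings it ran from -0.74 to -0.54.

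Trim30e-ps1, a pseudogene of the same cluster, lay below the level filter. Its log2 signals were 6.39, 6.13 and 6.21 in wild type and 5.93, 5.99 and 5.94 in diabetic marrow, again without overlap, at the 13.7 percentile of named probe sets. With a level this low and close copies next door, what its probe set read cannot be told apart from RNA of its relatives. The same holds for Trim30a and Trim30d, whose probe sequences were not analysed here.

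Trim12c, a relative of TRIM5, had log2 signals of 8.25, 8.37 and 8.20 in wild type and 8.21, 7.95 and 7.84 in diabetic marrow, where diabetic replicate 1 lay above wild type replicate 3. Trim34a had 8.62, 8.67 and 8.27 against 8.34, 8.34 and 8.15, so its groups overlapped too. Neither passed, with log2 changes of -0.27 ± 0.10 for Trim12c and -0.24 ± 0.11 for Trim34a (SE, n = 3 per group).

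Trim12a had log2 signals of 9.63, 9.67 and 9.28 in wild type and 9.54, 9.37 and 9.31 in diabetic marrow, and its log2 change of -0.12 ± 0.11 was about as large as its error. Trim6, known for making free ubiquitin chains that support interferon signalling, was dim, at the 28.8 percentile of named probe sets, and had a log2 change of 0.09 ± 0.09. Of the 7 cluster members, 6 had a change below 0 and the median was -0.27, against 48.3% below 0 and a median of 0.00 over all 19938 genes. Another 3 probe sets, which the annotation gives to a gene of the cluster together with other genes and which so name no single gene, had log2 changes of -0.07, 0.03 and -0.01.

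The Trim30 genes were also set against Trim12a within each array, as a description only, since Trim12a was chosen after its small change was seen. Trim30d minus Trim12a was -0.20, -0.14 and -0.08 in wild type and -0.74, -0.87 and -0.63 in diabetic marrow, a difference of changes of -0.60. Trim30a minus Trim12a gave a difference of changes of -0.52.

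**Figure D1:**
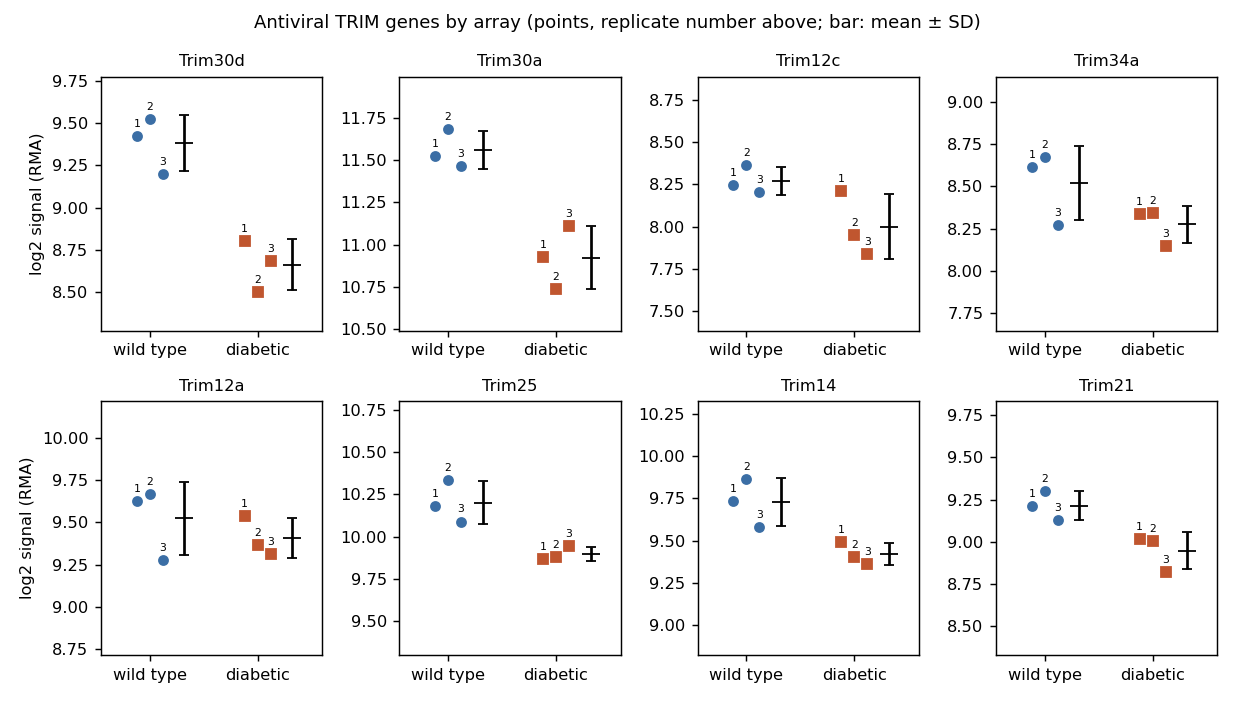
Log2 signal (y axis) of 8 antiviral TRIM genes on the wild type (circles) and diabetic (squares) arrays, with the replicate number above each point and the group mean with its SD as a bar. All panels span the same range in log2 units; the groups are apart for Trim30d, Trim30a, Trim25, Trim14 and Trim21 and overlap for Trim12c, Trim34a and Trim12a.

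The members that act on nucleic acid sensors and interferon signalling were compared next. Trim25, Trim14 and Trim21 were each lower on every diabetic array than on any wild type array, by 1.23-fold, 1.24-fold and 1.20-fold, but none passed the threshold over all genes. The other 9 of the 12 members of this group had log2 changes between -0.11 and 0.05. Of these the dim Trim31 also separated as lower, though narrowly, with a lowest wild type value of 6.495 and a highest diabetic value of 6.49. Over all genes, 4.81% separated as lower.

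Trim25 is the ligase that attaches ubiquitin chains to the RNA sensor RIG-I, encoded by Ddx58. Its log2 signals were 10.18, 10.34 and 10.09 in wild type and 9.87, 9.88 and 9.95 in diabetic marrow, with no overlap. The log2 change was -0.30 ± 0.08 (SE, n = 3 per group), and limma gave a Benjamini-Hochberg adjusted p of 0.317. Ddx58 had a change of -0.45 ± 0.08 in the same limma fit (adjusted p = 0.102).

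Trim14, a member without a RING finger that serves as an adaptor in antiviral signalling, had log2 signals of 9.73, 9.87 and 9.58 in wild type and 9.49, 9.40 and 9.36 in diabetic marrow. The diabetic arrays again lay below all wild type arrays. Its log2 change was -0.31 ± 0.08, and the Benjamini-Hochberg adjusted p from limma was 0.401. Trim14 had no window in the promoter table.

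Trim21, a cytosolic receptor that binds the constant part of antibodies on incoming viruses, had log2 signals of 9.21, 9.30 and 9.13 in wild type and 9.02, 9.01 and 8.82 in diabetic marrow. The groups did not overlap. Its log2 change was -0.27 ± 0.08 (SE, n = 3 per group), and its limma adjusted p was 0.487.

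The remaining members of this group moved little. Trim56, a ligase linked to the DNA sensing pathway, had log2 signals of 10.97, 10.97 and 11.34 in wild type and 10.89, 11.16 and 11.09 in diabetic marrow, and its change was -0.04 with a 95% interval of -0.32 to 0.23. Trim65, which ubiquitinates the sensor MDA5, had -0.03 ± 0.10. Trim26, with its pair of response element cores, had log2 signals of 8.70, 8.79 and 8.60 in wild type and 8.63, 8.61 and 8.68 in diabetic marrow, a change of -0.06 with an interval of -0.21 to 0.09. The within-array difference of Trim25 minus Trim26 was 1.48, 1.55 and 1.49 in wild type and 1.24, 1.27 and 1.27 in diabetic marrow, given as a description because the pair was chosen after its values were seen. Trim27, Trim11, Trim8 and Trim35 had changes of -0.06, -0.07, 0.03 and 0.05. Trim31 and Trim38 lay below the level filter, at mean log2 signals of 6.47 and 6.35, with changes of -0.11 ± 0.08 and -0.06 ± 0.10.

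Across both antiviral groups, 16 of 19 members had a log2 change below 0, with a median of -0.11. Of the other 40 members, 18 had a change below 0, with a median of 0.01. Without a filter on level, 7 members were lower at an unadjusted p under 0.05 in limma, where 2.71% of all genes were, and 1 was higher, where 3.18% were. All 7 lower ones belonged to the antiviral groups. The 7 members lower with groups that did not overlap were in these groups as well, where 4.81% of all genes separated in that direction. The role groups were chosen with earlier results of these data known, so these counts are a description only. The set by p holds Trim12c, the set by overlap holds the dim Trim31 in its place, and the other members are the same. Both sets of 7 include Trim30d, Trim30a and Trim30e-ps1, whose probe sets may read RNA of each other. For the 8 members with a response element core the changes ran from -0.72 for Trim30d to 0.17 for Trim2, with a median of -0.25. For the 38 members with a window but no core the median was 0.00, from -0.30 for Trim25 to 0.24 for Trim40. The 13 members with no window had a median of -0.025, from -0.31 for Trim14 to 0.05 for Trim50. The 8 with a core are not all separate cases, since Trim30d and Trim30a share a run of 118 bases and Trim12c and Trim12a one of 71.

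Markers of other cells moved alongside the antiviral TRIM genes to different degrees. Of 8 macrophage and monocyte markers, 6 were lower in diabetic marrow, 4 without overlap and 0 past the adjusted threshold in limma, where 4 had an unadjusted p under 0.05. Over all genes, 4.81% separated as lower and 2.71% were lower at an unadjusted p under 0.05 in limma. The 2 higher markers were Adgre1 at 0.27 ± 0.14 and Ccr2 at 0.05 ± 0.10. The mean of the 8 markers ran from 10.33 to 10.51 in wild type and from 10.20 to 10.29 in diabetic marrow. All 7 B lineage markers had changes below 0, but their means overlapped, from 9.76 to 10.75 and from 9.70 to 10.05. All 5 plasma cell markers had changes below 0, 3 of them at an unadjusted p under 0.05 and 0 past the adjusted threshold in limma, with means from 9.63 to 10.20 and from 9.48 to 9.64. The labelled tissue carried its markers, with neutrophil means from 13.13 to 13.34 over all arrays. Neutrophil, T and NK cell and skeletal muscle markers had mean shifts of 0.07, -0.02 and 0.02. The part of these cells in the TRIM values was not tested.

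**Figure D2:**
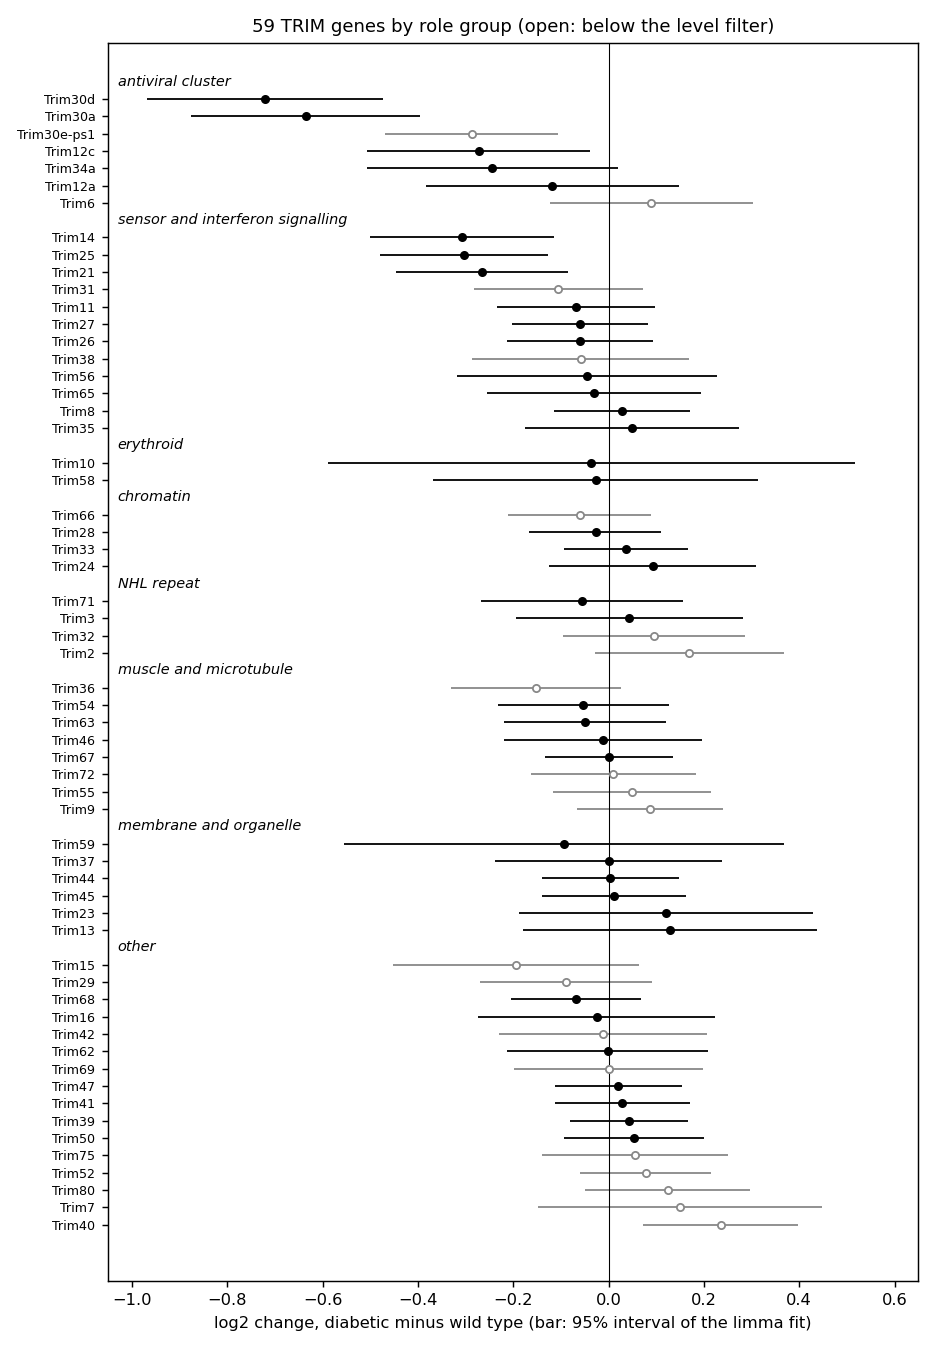
Log2 change from wild type to diabetic marrow (x axis) of all 59 TRIM genes by role group, with the 95% interval of the limma fit; open symbols mark the 20 members below the level filter. Trim30d at -0.72 and Trim30a at -0.64 lie farthest from 0. Most members outside the 2 upper groups lie within 0.1 of 0, as do 14595 of all 19938 genes.

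A pair of TRIM genes is tied to red cell formation. Trim10 is needed for the late steps of erythroid differentiation, and Trim58 helps erythroblasts to expel the nucleus by acting on dynein. Neither differed between the groups beyond its spread, but both varied widely between arrays of one group.

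Trim10 had log2 signals of 10.86, 10.89 and 11.69 in wild type and 10.82, 11.43 and 11.07 in diabetic marrow. Wild type replicate 3 was the highest array and diabetic replicate 2 the next. The change was -0.04 ± 0.24 (SE, n = 3 per group), with a wide 95% interval from -0.59 to 0.52. Trim58 had 10.26, 10.28 and 10.74 against 10.26, 10.62 and 10.32, with the same arrays on top and a change of -0.03 ± 0.15.

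The relation to erythroid markers was looked at after the values were seen, so its correlations and p-values are a description only. The adjustment over 2 relations does not cover that choice. The mean of the 7 measured markers of 10 listed (Car1, Tfrc, Alas2, Klf1, Epb42, Ermap and Slc4a1) was 12.14, 12.31 and 12.66 in wild type and 12.29, 12.61 and 12.36 in diabetic marrow, so it was highest on the same arrays. Of these 7 genes 3 had a change below 0 and 0 passed the adjusted threshold in limma. An unadjusted p under 0.05 in limma was reached by 1, Car1, which was higher on every diabetic array, at 0.27 ± 0.08. Over all genes 3.18% were higher at that p and 6.01% separated as higher. Over the 6 arrays Trim10 followed this mean with Pearson's r = 0.944 (two-sided exact permutation p = 0.00417) and Spearman's rho = 0.943 (exact permutation p = 0.0167). Trim58 gave r = 0.95 (exact permutation p = 0.00417) and rho = 0.943 (exact permutation p = 0.0167). Adjusted over these 2 relations by Benjamini-Hochberg the permutation p-values stayed at 0.00417 and 0.0167. Without wild type replicate 3 and diabetic replicate 2, r was 0.595 for Trim10 and 0.693 for Trim58, so the relation rests largely on those arrays. How much of the Trim10 and Trim58 signal follows the share of erythroid cells was not tested. The Trim10 promoter holds the GATA motif AGATAA, read as TTATCT, 163 to 158 bases before its start. The motif was present in 11.2% of all windows and in 5% of the 60 TRIM windows, also those of Trim72 and Trim39. It was not in the window of Trim58.
Trim10 (chr17:36869384-36869453, plus strand, capitals mark the motif): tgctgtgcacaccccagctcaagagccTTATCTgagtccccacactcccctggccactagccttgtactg

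**Figure D3:**
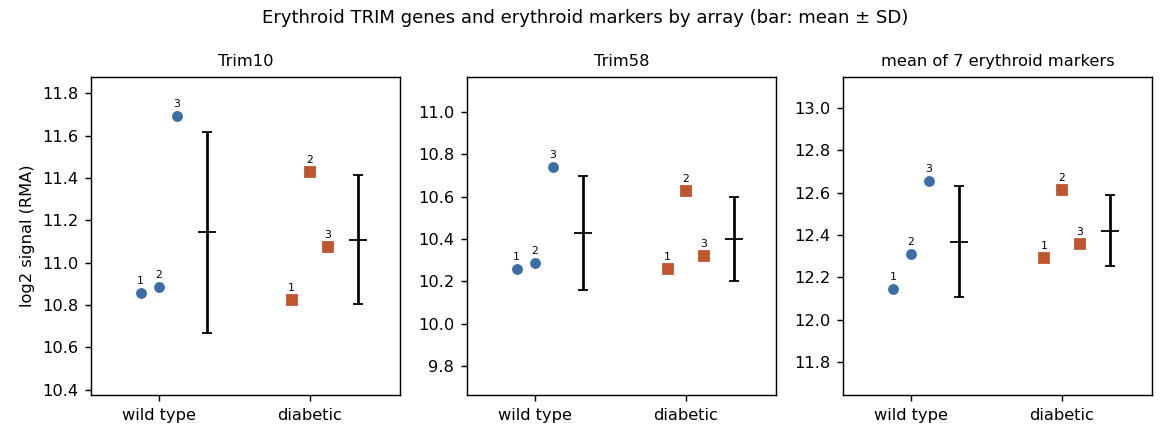
Log2 signal (y axis) of Trim10, Trim58 and the mean of 7 erythroid markers on wild type (circles) and diabetic (squares) arrays, numbered by replicate, with mean and SD as a bar. In all 3 panels wild type replicate 3 is the highest array and diabetic replicate 2 the next.

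The chromatin members, which carry PHD and bromodomains, differed little between groups. Trim28, the corepressor of KRAB zinc finger proteins, had log2 signals of 10.92, 10.84 and 10.80 in wild type and 10.86, 10.80 and 10.81 in diabetic marrow. Trim33, a regulator of SMAD4 and of blood cell fate, had 10.27, 10.21 and 10.18 against 10.25, 10.24 and 10.28. The 95% intervals were -0.17 to 0.11 for Trim28 and -0.09 to 0.17 for Trim33, so changes of the size seen for Trim30a lay outside both. Trim24, a nuclear receptor cofactor, had a change of 0.09 ± 0.09, and the dim Trim66, at 7.13, one of -0.06 ± 0.07.

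Among the members with NHL repeats, Trim2 and Trim32 were dim, at mean log2 signals of 7.26 and 7.17. Trim2, a ligase of neurofilament light chain, had 7.10, 7.30 and 7.12 in wild type and 7.35, 7.46 and 7.22 in diabetic marrow, with groups that overlapped and a change of 0.17 ± 0.09. Trim32, linked to limb-girdle muscular dystrophy, had 0.10 ± 0.08. Trim3 and Trim71, the latter a partner of the let-7 pathway in early development, had changes of 0.04 ± 0.10 and -0.06 ± 0.09.

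The muscle and microtubule group had 8 members, 4 of them below the level filter. Trim63, Trim54 and Trim55, the muscle RING fingers, had changes of -0.05, -0.05 and 0.05, and Trim72, a membrane repair protein of muscle, one of 0.01. Trim36 was at 6.84, 6.81 and 6.61 in wild type and 6.65, 6.58 and 6.57 in diabetic marrow, where 1 wild type array lay among the diabetic ones, and its change was -0.15 ± 0.08. Trim9, a nerve cell ligase, had 0.09, while Trim46 and Trim67 had -0.01 and 0.00. Trim63 passed the filter with a diabetic mean of 7.49, just under the limit of 7.50, and was the only member whose groups lay on both sides of it.

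Members tied to membranes and organelles all passed the filter, and none of the 6 passed the test. Trim59 varied most, with log2 signals of 9.21, 9.38 and 9.91 in wild type and 9.31, 9.74 and 9.18 in diabetic marrow, and the same pair of arrays on top as for Trim10. Its change was -0.09 ± 0.20. Wild type replicate 3 was also highest and diabetic replicate 2 next for Trim37 and for Trim56 of the sensor group. That order of arrays is therefore not particular to the erythroid members. Trim13, a ligase of the endoplasmic reticulum, had 0.13 ± 0.13, and Trim23, which carries an ARF GTPase domain, 0.12 ± 0.13. Trim37, mutated in mulibrey nanism, Trim44 and Trim45 had changes of 0.00, 0.00 and 0.01.

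The last 16 members had no shared role, and 9 of them were dim. Trim40 had the largest upward change of the family, with log2 signals of 6.78, 6.82 and 6.94 in wild type and 7.03, 7.05 and 7.16 in diabetic marrow, without overlap. It lay at the 28.1 percentile of named probe sets, and its change of 0.24 ± 0.07 had a limma adjusted p of 0.627 over all 19938 genes. Trim39 and Trim52 were also higher on every diabetic array, by only 0.04 and 0.08, and 6.01% of all genes separated in that direction. Trim15 had a change of -0.19 ± 0.11, Trim7 0.15 ± 0.13 and Trim80 0.12 ± 0.08, and Trim29, Trim42, Trim69 and Trim75 lay between -0.09 and 0.06 at means of 7.02 or less. The brighter Trim16, Trim41, Trim47, Trim50, Trim62 and Trim68 had changes between -0.07 and 0.05.

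Outside the antiviral groups, 0 of 40 members passed the adjusted threshold in limma with or without the filter on level. Over all genes only 0.432% passed with the filter and 0.286% without it, so this count does not set these members apart. Of the 40, 1 member, Trim40, had an unadjusted p under 0.05 in limma, as higher. Over all genes 3.18% were higher and 2.71% lower at that p. In all, 20 of the 59 members lay below the level filter, with mean log2 signals from 6.10 for Trim30e-ps1 to 7.37 for Trim7. The filter was set at 7.50, the 40th percentile of named probe sets.

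**Figure D4:**
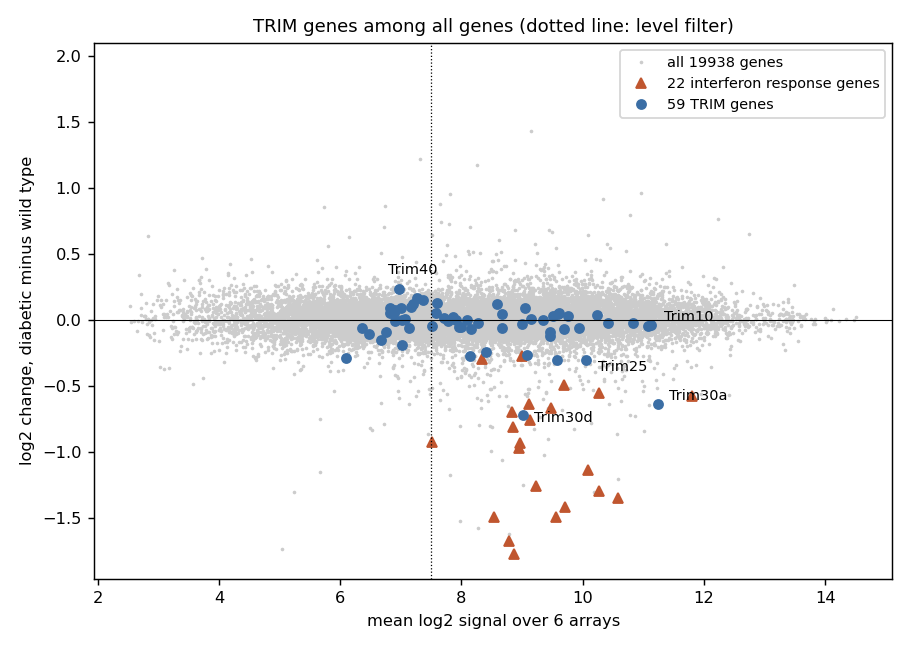
Log2 change from wild type to diabetic marrow (y axis) against the mean log2 signal over 6 arrays (x axis) for all 19938 genes (grey), 22 interferon response genes (triangles) and 59 TRIM genes (circles). Trim30a at -0.64 and Trim30d at -0.72 lie among the interferon response genes, whose median is -0.93. Within 0.1 of 0 lie 41 of the 59 TRIM genes and 14595 of all 19938 genes.

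Genes around the TRIM proteins were taken from lists chosen with earlier results of these data known, so their counts are a description only. Of 8 TRIM-type or related genes with other symbols, Pml, the body-forming protein also called TRIM19, had the lowest value at -0.28 ± 0.07 (limma adjusted p = 0.355). None of the 6 that passed the level filter (Pml, Mid1, Mefv, Cmya5, Rnf207, Fsd1) passed the test, and Mid1 and Mefv, the pyrin gene, were at -0.10 and 0.08. Among the 8, an unadjusted p under 0.05 was reached by Pml and by the dim Fsd1l, at 0.40 ± 0.15.

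In the nucleic acid sensor pathway that several TRIM ligases act on, 3 of 17 measured genes fell past the adjusted threshold in limma, where 0.333% of all genes tested did. At an unadjusted p under 0.05 in limma 7 were lower and 1 higher, where 2.71% and 3.18% of all genes were. Those past the adjusted threshold were Zbp1, a sensor of Z-form nucleic acid, at -0.97 ± 0.10, Dhx58, at -0.81 ± 0.09, and Irf7, a transcription factor of interferon genes, at -1.30 ± 0.17. The sensor gene Ifih1 was at -0.76 ± 0.18 and did not pass (limma adjusted p = 0.277). Mavs, the mitochondrial adaptor below RIG-I, and Rnf135, another RIG-I ligase, were at -0.10 and 0.07. Among interferon signalling genes, Irf9 and Stat2, partners in the factor that binds the response element, fell by 0.78 ± 0.09 and 0.49 ± 0.07. Socs1 and Irf1 were at -0.271 and -0.265, Jak2 and Ifngr1 at 0.17 and 0.21, and none of these passed. Of the 14 measured genes of this list, 4 were lower and 2 higher at an unadjusted p under 0.05 in limma. The 22 measured interferon response genes had a median log2 change of -0.93, all below 0. Of them 15 were past the threshold, where 0.333% of all genes tested fell past it. Their mean signals lay between 9.60 and 10.00 on the wild type arrays and between 8.81 and 8.89 on the diabetic arrays. Zbp1, Dhx58, Irf7 and Stat2, and Usp18 of the partner list, belong to this list too, so the calls of these lists are partly the same genes. On this scale the TRIM cluster's median was -0.27.

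The ubiquitin E1 and E2 enzymes that feed TRIM ligases showed 0 of 21 genes past the threshold in limma and 1 at an unadjusted p under 0.05, Uba7, the activating enzyme of ISG15, at -0.30 ± 0.11. Ube2n, the maker of K63-linked chains, was at -0.10 ± 0.09. Among 28 partners and substrates 2 fell past the adjusted threshold in limma and 3 were lower at an unadjusted p under 0.05. Over all genes 0.333% and 2.71% did so. The called ones were Fcgr1, a receptor for the antibodies that Trim21 also binds, at -0.68 ± 0.07, and Usp18 at -1.42 ± 0.16. The other was Herc6, at -0.74 ± 0.20, whose groups did not overlap (limma adjusted p = 0.413). Tab2 and Tab3, targets of Trim30a, were at 0.07 and -0.01, and Smad4 was at 0.11.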

How the data were processed

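Total RNA of 6 marrow samples was read on Affymetrix gene arrays. Each deposited value is a log2 signal of a probe set. RMA and Affymetrix Expression Console are the tools listed in the submitters' processing notes. RMA equalises the arrays, so a shift shared by most genes cannot be seen. For their versions and the build, the sources used here give nothing. Array medians lay between 7.67 and 7.73 and correlations between arrays were 0.9901 to 0.9939. The number of arrays limits the precision.

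Of 35556 probe sets, 21789 had 1 symbol, 1621 several and 12146 none. All 59 TRIM symbols matched RefSeq, GRCm38.p6. The 12029 genes whose mean reached 7.50, the 40th percentile over named probe sets, were fitted with lmFit and eBayes of limma 3.58.1 (R 4.3.3), with Benjamini-Hochberg adjustment and a threshold of 0.05. Members under that level were taken from a fit of all 19938 genes. Changes are diabetic minus wild type. Errors are SE of the fit for changes and SD for levels. The fit was tested on simulated data. Motifs searched were the response element core, the gamma-activated site TTCNNNGAA and AGATAA, overlaps allowed. TTCNNNGAA lay in a window of 5 members and in 8.3% of all windows. Figures used matplotlib 3.10.9 in Python 3.11.15.

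The members, role groups and lists were chosen with earlier results of these data known. The naming rule took members past the threshold, Trim25, Trim30a, Trim10, up to 4 members per role group by p, the 5 brightest and the 3 dimmest. Other members are named to account for all of them. Alternatives covered the level filter, normalization, probe set mean, eBayes settings, array weights, a replicate block, a test of all probe sets and each array left out. Part of the strain designation is not reported here.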

Additional observations from a re-analysis of the deposited data

How the results depend on the processing

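The call on Trim30d, the single TRIM gene past the threshold, held with no level filter, with arrays centred on their medians, with quantile normalization, with probe sets averaged per gene, and with eBayes set to trend and robust. The count of TRIM genes past the threshold in limma was 0 with the level filter at the 60th percentile (5 at an unadjusted p under 0.05), 0 with all 35556 probe sets tested (8 at an unadjusted p under 0.05), and 8 with array weights. It was 0 to 1 when 1 array was left out, with 5 to 8 at an unadjusted p under 0.05. The adjusted p of Trim30d in limma with Benjamini-Hochberg adjustment was 0.0549 at the 60th percentile and ran from 0.000154 to 0.205 over all alternatives, while its change stayed between -0.81 and -0.64. The estimate of the array weights stopped before it converged and the weights were very unequal, from 0.251 to 11.7. In that setting 1878 genes passed, and its calls, Trim30d included, support nothing here. With all probe sets 1 gene or probe set passed, and leaving out 1 array gave 3 to 70 genes. The log2 changes of Trim30a, Trim25, Trim14 and Trim21 kept their direction in all 15 alternatives and passed the threshold only with these unconverged array weights, and those of Trim10 and Trim58 kept it in 12 and 11. Whether the replicate numbers in the titles pair the arrays was not settled. The deviations of same-numbered arrays correlated at 0.327, -0.0428 and -0.0549, and 3 arrays per group are too few to decide it. With the number as a replicate block 0 TRIM genes passed in limma (7 at an unadjusted p under 0.05) and 2 of all genes did. A dim member has no value at the 60th percentile. The cause of these differences was not tested.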
